A study of Mus musculus with 64 samples.

Results

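The genes described here are Mpo and 7 others, listed together as azurophil (primary) granule genes whose products are not serine proteases: Lyz2, Srgn, Ms4a3, Cst7, Nkg7, Cd63 and Hexa. They were found by mapping Ensembl identifiers to symbols on GRCm38, and all 8 were present in each count table, out of 38924 genes listed for LSK, 15790 for CMP, 27892 for GMP and 13050 for MEP. They were chosen by symbol as granule genes whose levels were largely kept or mixed in the knockout, so small changes between KO and WT are partly a matter of that choice. The counts came from 64 RNA-seq libraries of progenitors sorted from C57BL/6 fetal mouse liver. The fetuses were wild type (WT), heterozygous (Smarcd2 +/-, HET) or homozygous mutant (Smarcd2 -/-, KO), all labelled 13 to 14 days post coitum apart from 1 CMP HET library, replicate 1, labelled 14.5. LSK cells (lineage-negative, Sca1+, cKit+, a stem and early progenitor gate) were represented by 5 libraries of WT, 9 of HET and 9 of KO. Common myeloid progenitors (CMP, CD34+ with intermediate CD16/32) gave 3, 7 and 4. Granulocyte-monocyte progenitors (GMP, CD34+ with high CD16/32) gave 3, 7 and 3, and megakaryocyte-erythroid progenitors (MEP, low for both) gave 3, 7 and 4. The labels do not say that the libraries of a group came from separate fetuses, so p-values measure the spread between these libraries, which may be technical. They do not describe the Smarcd2 allele either, and they write CD177 in the gates of CMP, GMP and MEP where the staining lists CD117 (c-Kit).

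Azurophil granules are the first granules that a neutrophil precursor makes, at the promyelocyte stage, and they hold enzymes that kill and digest microbes. Mpo encodes myeloperoxidase, which makes hypochlorous acid from hydrogen peroxide and chloride. Lyz2 encodes a lysozyme, which cuts bacterial cell walls and is also made by macrophages. Srgn encodes serglycin, the proteoglycan core that packs cationic proteins into granules. Cst7 encodes cystatin F, an inhibitor of cysteine cathepsins, Cd63 a tetraspanin of granule and lysosome membranes, and Hexa the alpha subunit of the lysosomal enzyme beta-hexosaminidase. Ms4a3 encodes a membrane protein typical of granulocyte-monocyte progenitors, and Nkg7 a membrane protein of cytotoxic granules best known from natural killer cells. Smarcd2 encodes a subunit of BAF, the chromatin remodelling complex, and is needed for neutrophils to mature normally.

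On GRCm38 (GENCODE M21) Mpo lies at chr11:87793581-87804413 on the plus strand, Lyz2 at chr10:117277331-117282321 on the minus strand and Srgn at chr10:62493833-62527451 on the minus strand. Ms4a3 lies at chr19:11629496-11640851 on the minus strand, Cst7 at chr2:150570415-150578944 on the plus strand and Nkg7 at chr7:43437073-43438249 on the plus strand. Cd63 lies at chr10:128900989-128912822 and Hexa at chr9:59539540-59565109, both on the plus strand. All are protein-coding, and each value below is summed over the exons of the gene. Counting did not use strand as far as the protocol shows, so reads where Mpo shares 512 exon bases with the antisense gene Gm11505, and where Hexa shares 255 with Tmem202, cannot be told apart.

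The starts of 4 members are printed because Mpo was the most abundant member in GMP and CMP while Nkg7, Cst7 and Ms4a3 had the lowest ratios of mean KO to mean WT level in GMP or CMP. They run from 250 bases before to 50 bases after the start, from RefSeq on GRCm38.p6, where all 8 members matched. Capitals mark matches to any of 5 motifs searched on both strands: TTGCNNAA (bound by C/EBP factors), GAGGAA (PU.1), TGTGGT (RUNX), AACGG (MYB) and GGGCGG (the GC box); a minus-strand match shows as its reverse complement.
Mpo, chr11:87793534-87793833, plus strand: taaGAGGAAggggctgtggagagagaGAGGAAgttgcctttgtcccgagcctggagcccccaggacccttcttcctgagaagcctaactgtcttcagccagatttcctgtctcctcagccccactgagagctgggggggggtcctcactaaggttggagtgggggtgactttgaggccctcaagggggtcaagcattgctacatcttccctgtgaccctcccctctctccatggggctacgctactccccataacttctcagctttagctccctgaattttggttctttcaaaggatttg
Nkg7, chr7:43436888-43437187, plus strand: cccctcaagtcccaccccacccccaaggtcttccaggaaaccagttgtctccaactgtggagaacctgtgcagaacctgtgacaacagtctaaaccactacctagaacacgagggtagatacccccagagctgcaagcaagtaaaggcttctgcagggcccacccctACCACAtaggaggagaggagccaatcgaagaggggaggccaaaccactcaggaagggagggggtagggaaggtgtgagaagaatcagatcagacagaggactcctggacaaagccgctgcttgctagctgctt
Cst7, chr2:150570165-150570464, plus strand: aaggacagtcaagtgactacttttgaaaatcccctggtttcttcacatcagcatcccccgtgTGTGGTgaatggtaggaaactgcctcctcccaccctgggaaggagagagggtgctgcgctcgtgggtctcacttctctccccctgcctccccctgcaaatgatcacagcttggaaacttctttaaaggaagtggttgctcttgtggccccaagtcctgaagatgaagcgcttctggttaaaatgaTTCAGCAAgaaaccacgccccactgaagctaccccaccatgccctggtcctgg
Ms4a3, chr19:11640802-11641101, minus strand: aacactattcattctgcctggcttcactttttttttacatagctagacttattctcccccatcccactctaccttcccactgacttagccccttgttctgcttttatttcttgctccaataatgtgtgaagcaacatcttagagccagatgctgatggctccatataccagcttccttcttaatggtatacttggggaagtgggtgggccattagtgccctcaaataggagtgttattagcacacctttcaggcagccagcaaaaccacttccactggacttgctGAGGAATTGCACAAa
Mpo held 2 GAGGAA matches and no other motif of the 5. Nkg7 held 1 TGTGGT match, on the minus strand. Cst7 held 1 TTGCNNAA match across its start and 1 TGTGGT match, and Ms4a3 held GAGGAA and TTGCNNAA side by side after its start. Of 32851 promoters of this length, 10.8% held TTGCNNAA, 28.3% GAGGAA, 16.8% TGTGGT, 17.4% AACGG and 35.7% GGGCGG. These matches describe letters only.

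Lyz2 has a near-identical neighbour, Lyz1, and how the authors' counting split shared reads between them is not given in the sources used here, so Lyz2 values are uncertain to that extent. The 2 coding sequences (447 bases each) differed at 22 bases, an identity of 95.1%, and 80 of the 398 distinct 50-base words of Lyz1 also stood in Lyz2. The 90 coding bases with the most differences are shown, with the 13 differing bases in capitals.
Lyz2, coding bases 43 to 132: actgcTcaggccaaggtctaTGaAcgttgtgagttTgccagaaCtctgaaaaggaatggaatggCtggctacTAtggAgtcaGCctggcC
Lyz1, coding bases 43 to 132: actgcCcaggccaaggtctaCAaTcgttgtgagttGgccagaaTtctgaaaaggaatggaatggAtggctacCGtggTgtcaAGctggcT
The longest stretch without a difference was 118 bases, and a read inside it fits both genes.

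Reads in genes ranged from 4327582 to 24069833 per LSK library, 1577073 to 8092644 in CMP, 1006090 to 6300070 in GMP and 1488328 to 5646315 in MEP. Smarcd2 itself was lower in every KO library than in every WT and HET library of its population (log2 fold change against WT from -5.46 in LSK to -7.22 in GMP). Several libraries stood apart from their group. In GMP HET 8 all 8 members were the lowest of the group, CMP HET 8 had the fewest reads of CMP, and MEP HET 8 and MEP KO 15 had Klf1, an erythroid factor, at 1247 and 874 CPM (counts per 1e6 reads of the TMM-scaled library) against a highest MEP group median of 162. The GMP KO libraries had 2.52% to 3.06% of their reads in synthetic spike-in RNA, against at most 0.394% in any other GMP library. Their summed eosinophil markers (5 genes, none at 0 in all libraries) were 1827 to 17290 CPM against 799 to 1759 in WT. HET GMP libraries ran from 152 to 10018, overlapping KO. Prg2 alone was 1302 to 15882 CPM in KO GMP and 579 to 1384 in WT GMP. Epx, on the same list, had a lower mean in KO (47.5, 3.89 to 97.8) than in WT (87.3, 72.7 to 97.9). Basophil and mast cell markers (9 genes) were 2264 to 3526 in KO and 484 to 973 in WT. Later neutrophil markers (7 of 8 listed) were 0.791 to 11.7 in KO and 590 to 1306 in WT. The part of these differences in the GMP values was not tested. In bulk libraries, fewer cells of a type and less RNA per cell cannot be told apart.

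All 8 members were called higher in GMP than in MEP in each genotype, and 4 to 6 of them were called higher in GMP than in CMP. Mpo had the highest level. Its CPM in the 3 WT GMP libraries was 7462, 22516 and 25520, against 2774, 3615 and 3919 in WT CMP and 84.8, 117 and 204 in WT MEP. The 3 ranges did not overlap. Other genotypes were less cleanly apart: GMP and MEP ranges were without overlap for 8 of 8 members in WT, 2 in HET and 7 in KO. GMP and CMP ranges were without overlap for 7 members in WT, 0 in HET and 6 in KO. The share of all genes without overlap was not computed, so these counts are not a result about the members. Ranges also widen with the number of libraries, and the HET range of GMP includes GMP HET 8, the lowest for all 8 members. Levels come from tables scaled separately, and the tests below from 1 joint edgeR model of the 3 populations. Mpo was higher in GMP than in MEP by 7.29 ± 0.98 on the log2 scale in WT (SE, adjusted p = 1.3e-06), 6.81 ± 0.63 in HET and 6.85 ± 0.85 in KO. The 8 of 8 members called higher compare with 4.77% of 11829 genes called higher in WT, 11.8% in HET and 9.15% in KO. Ms4a3 had the steepest rise, 8.94 ± 1.04 in KO and 7.81 ± 1.13 in WT, and Hexa the smallest in WT, 2.73 ± 0.47. In KO, Nkg7 rose by 3.02 ± 0.83 (adjusted p = 0.0080), and Hexa by 2.21 ± 0.42.

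**Figure D1:**
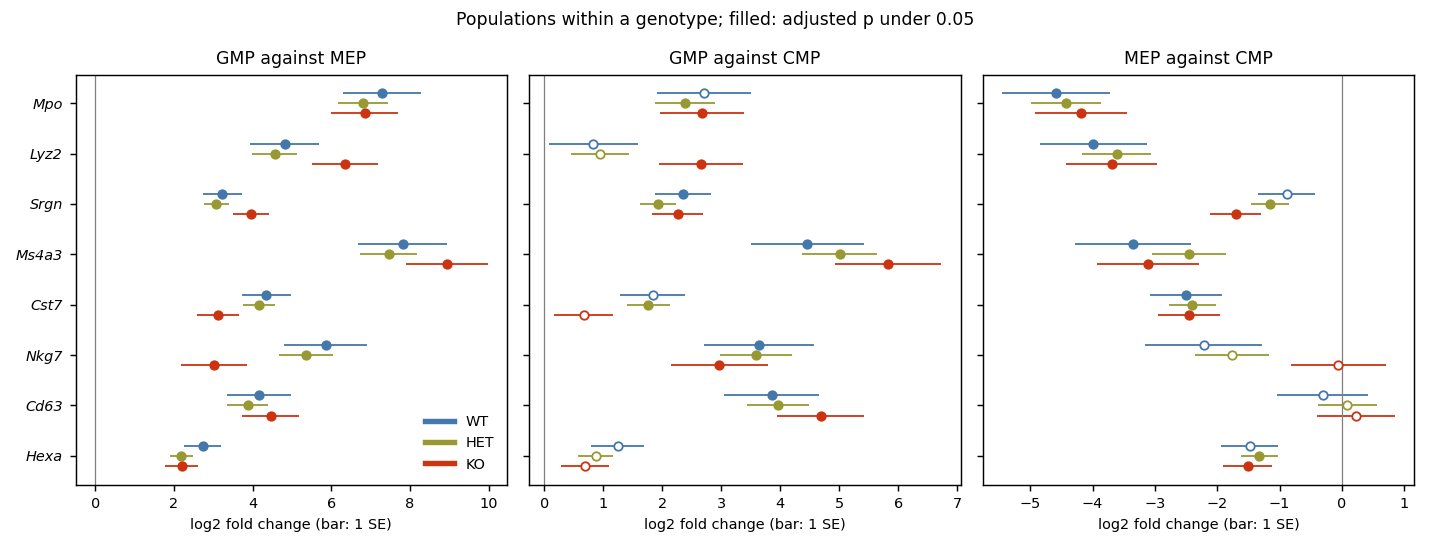
Log2 fold changes of the 8 members between populations within each genotype, from the joint model; bars are 1 SE and filled points have an adjusted p under 0.05. In the panel of GMP against MEP all 24 points are filled and lie right of 0.

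Against CMP, GMP was higher for 4 members in WT, 6 in HET and 6 in KO, where 0.676%, 3.36% and 7.73% of all genes were called higher. Srgn, Ms4a3, Nkg7 and Cd63 passed in all 3 genotypes. Mpo passed in HET (2.39 ± 0.51, adjusted p = 0.0024) and KO (2.67 ± 0.71, adjusted p = 0.013), while its WT value, 2.71 ± 0.80, did not (adjusted p = 0.098). Cst7 passed in HET (1.76 ± 0.36) and not in KO (0.67 ± 0.50). Lyz2 passed in KO, at 2.65 ± 0.72 (adjusted p = 0.014), and had values of 0.83 ± 0.75 in WT and 0.95 ± 0.50 in HET that did not pass. Hexa passed in none. The WT count was 0 without CMP WT replicate 5, 1 without CMP WT replicate 2 and 7 without GMP HET replicate 8. The KO count was 3 without GMP KO replicate 15.

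MEP was lower than CMP for 4 members in WT, 6 in HET and 6 in KO (all genes called lower: 2.23%, 6.38% and 5.95%). Mpo was lower by 4.58 ± 0.87 on the log2 scale in WT and Lyz2 by 3.98 ± 0.85, and Ms4a3 and Cst7 also passed in WT. Cd63 did not follow: its MEP against CMP values were -0.31 ± 0.73 in WT, 0.08 ± 0.47 in HET and 0.22 ± 0.63 in KO. Its WT CPM was 38.6, 40.2 and 56.0 in CMP and 23.4, 39.1 and 40.3 in MEP, overlapping. In the GMP libraries of WT it reached 297, 580 and 718.

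**Figure D2:**
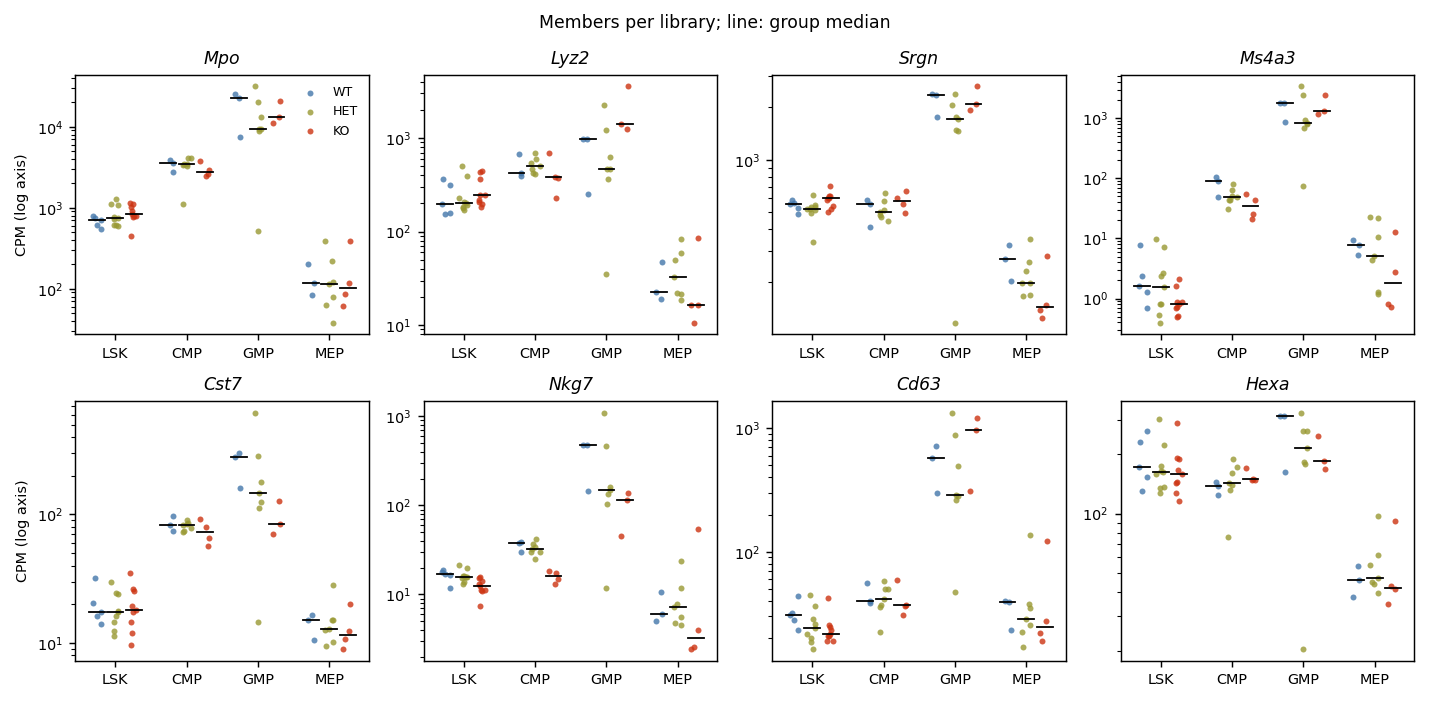
CPM of each member in every library on a log axis, by population and genotype; the line is the group median. LSK, CMP, GMP and MEP were scaled as separate tables. Within each genotype the GMP median is the highest for every member except Lyz2, whose HET median is highest in CMP, and GMP HET 8 sits low in every panel.

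Per kilobase of exon the members differed widely. In WT GMP the medians were 6576 CPM per kb for Mpo, 1072 for Srgn, 947 for Ms4a3, 734 for Lyz2, 519 for Nkg7, 286 for Cst7, 157 for Cd63 and 156 for Hexa. The range of Mpo did not meet that of Srgn, while each later neighbour overlapped the next. In WT CMP the order began with Mpo (1056) and Lyz2 (323), with ranges that did not meet, and ended with Cd63 (10.9). In WT LSK and WT MEP, Srgn led by median, at 253 and 124 CPM per kb, ahead of Mpo at 203 and 34.2. Their ranges overlapped in LSK (Srgn 224 to 268, Mpo 160 to 230) and did not meet in MEP. The 8 members together took 1.37% to 3.45% of reads in WT GMP libraries, 0.396% to 0.581% in WT CMP, 0.150% to 0.190% in WT LSK and 0.0452% to 0.0681% in WT MEP. In KO GMP they took 1.82% to 2.80%.

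By genotype, 1 of the 8 members was called between KO and WT in CMP and none in LSK, GMP or MEP (edgeR). Of all genes tested, 18.8% were called for LSK, 1.84% for CMP, 0.204% for GMP and 0.00856% for MEP, and the GMP and MEP tests thus called few genes of any kind. Between KO and HET 1 member was called in LSK, 1 in CMP and none in GMP or MEP, beside 11.1%, 2.19%, 0.261% and 0.0171% of all genes. At an unadjusted p under 0.05, KO against WT, 4454 genes passed for LSK, 789 for GMP and 809 for MEP. No member was called between HET and WT in any population, where 0.00721% of genes were called in LSK and none in the other populations (1532, 296, 61 and 89 genes had an unadjusted p under 0.05 in LSK, CMP, GMP and MEP). Smarcd2 itself was not called there either, at log2 fold changes from -0.72 in LSK to -1.24 in CMP. A change of that size thus went uncalled in these tests. limma with library quality weights called 7 members lower in HET than in WT GMP, but it called 50.9% of all genes in that comparison, so the members' count is not a result about them. DESeq2 called no member and no other gene there. The median log2 fold change of the members, KO against WT, was -0.08 for LSK, -0.20 for CMP, -0.14 for GMP and 0.16 for MEP, beside 0.01, -0.01, 0.00 and 0.06 over all genes tested. The MEP median turned to -0.78 without MEP KO 15, with 8 of 8 members below 0. Within title series M32 and M33 all 16 member values of KO minus WT in MEP were below 0. Each series held 1 KO library of MEP, against 2 WT libraries in M32 and 1 in M33. The members share these libraries, so they are not replicates, and the share of all genes below 0 was not computed.

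**Figure D3:**
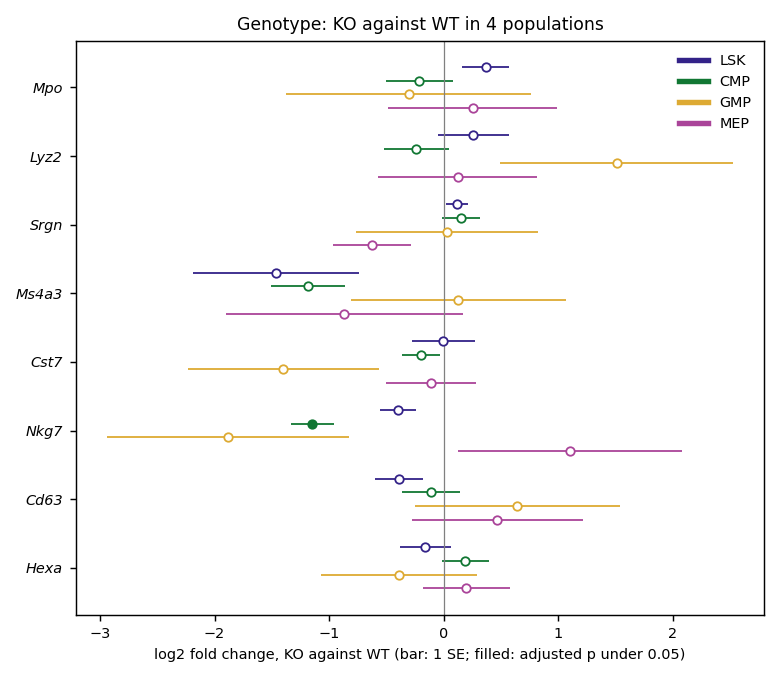
Log2 fold changes of the 8 members, KO against WT, in each population; bars are 1 SE and the filled point has an adjusted p under 0.05. The filled point is Nkg7 in CMP at -1.15, and the GMP bars are the longest for most members.

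Mpo, the leading enzyme of the granule, did not pass in any population. In CMP its CPM in KO was 2490, 2644, 2956 and 3782, within or just under the WT range of 2774 to 3919, and the log2 fold change was -0.21 ± 0.29 (adjusted p = 0.83). In GMP the KO libraries gave 11296, 13038 and 20539, inside the span of the 3 WT libraries, with a log2 fold change of -0.31 ± 1.07. The WT library at 7462 was GMP WT 2, which had the fewest reads of GMP. In LSK the median was 697 in WT (548 to 788), 746 in HET (598 to 1287) and 826 in KO (451 to 1156), and the fold change was 0.37 ± 0.21 (adjusted p = 0.23). In MEP the KO value was 0.25 ± 0.74, and -0.62 without KO 15. With an SE of 1.07 a change of Mpo of several-fold was not detectable in GMP.

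Srgn did not pass by edgeR, KO against WT, in any population. Its CPM in CMP was 413, 559 and 589 in WT and 495, 558, 603 and 659 in KO, overlapping, with a log2 fold change of 0.15 ± 0.17. In GMP it was 1766, 2353 and 2371 in WT and 1916, 2083 and 2628 in KO, with a value of 0.03 ± 0.80. In MEP 3 of the 4 KO libraries lay at 124, 139 and 148, below the WT libraries at 203, 272 and 326, and KO 15 lay at 281; the log2 fold change was -0.63 ± 0.34 (adjusted p = 0.68).

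Lyz2 had its highest values of the GMP groups in KO by median. Its CPM was 252, 966 and 970 in WT and 1251, 1416 and 3568 in KO, so each KO library lay above each WT library. The log2 fold change of 1.51 ± 1.02 did not pass (adjusted p = 0.81). Lyz1, which shares sequence with it, gave 34.7, 121 and 134 in WT and 149, 179 and 372 in KO, also without overlap. HET libraries of GMP spanned 35.1 to 2270 for Lyz2, with a median of 463. In CMP the Lyz2 value was -0.24 ± 0.28, with KO at 228 to 693 and WT at 397 to 668, overlapping. Macrophage markers (9 genes) summed to 70.8 to 152 CPM in KO GMP and 54.1 to 90.7 in WT GMP, and monocyte markers (5 genes) to 56.5 to 218 and 445 to 813. Their part in the Lyz2 values was not tested.

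Nkg7 was the 1 member that edgeR called between KO and WT, in CMP. In CMP its CPM was 29.99, 38.1 and 39.0 in WT and 13.2, 15.1, 17.6 and 18.6 in KO, and in the 7 HET libraries it ran from 24.8 to 42.1 with a median of 32.6. Every KO library lay below every WT and HET library. It fell by 1.15 ± 0.19 on the log2 scale against WT (edgeR, adjusted p = 0.0020, with 0.823% of genes called lower) and by 1.04 ± 0.16 against HET (adjusted p = 0.0015, with 0.806% called lower). The ratio of mean CPM was 0.451 against WT. Within M32, a series of libraries whose titles share that prefix, the 1 KO library had 17.6 CPM and the 2 WT libraries 29.99 and 39.0, and within series M33 the KO library had 13.2 and the WT library 38.1. Series M34 held 2 KO libraries and no WT or HET. With M32 alone the value was -0.98 ± 0.31 and did not pass (adjusted p = 0.27). Of the NK and T cell markers (9 genes) CMP lists 2, Gzma and Eomes, which were 0 in all 3 WT libraries and summed to 0 to 45.2 CPM in KO (Eomes at 0 in all 4), and their part in the Nkg7 value was not tested.

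In LSK, Nkg7 was 11.9 to 18.7 CPM in WT with a median of 16.9, 13.1 to 21.7 in HET with a median of 15.9, and 7.45 to 15.9 in KO with a median of 12.45, so the ranges overlapped. It fell by 0.41 ± 0.13 on the log2 scale against HET (adjusted p = 0.040, with 5.17% of genes called lower). Against WT the value was -0.40 ± 0.15, which did not pass (adjusted p = 0.071) but did with title series as a block (adjusted p = 0.036) or without WT21.1 (0.0374). NK and T cell markers in LSK summed to 12.7 to 31.4 CPM in KO and 6.71 to 14.9 in WT, with Ncr1 and Cd3e at 0 in both. The HET call was lost with title series as a block (adjusted p = 0.058), without the count filter (0.063), with only the 2 genotypes (0.0528) and in title series 19 to 21 alone (0.24, an alternative chosen after seeing the data). In GMP it was 145, 475 and 480 in WT and 44.9, 116 and 137 in KO, without overlap, and the value of -1.88 ± 1.06 did not pass (adjusted p = 0.80). NK and T cell markers summed to 11.3 to 71.8 CPM in KO GMP and 0.807 to 3.72 in WT GMP, with Klrd1 and Tbx21 at 0 in all KO libraries, and their part was not tested. The GMP HET libraries ran from 11.7 to 1103 with a median of 148. In MEP 3 KO libraries had 2.44, 2.57 and 3.94 CPM, below the WT libraries at 5.03, 6.03 and 10.7, while KO 15 had 54.3. These values rest on few reads, as few as 7 in a KO library and 15 to 28 in the WT libraries. MEP KO 15 also had Gzma, a granzyme of cytotoxic cells, at 40.8 CPM and Pf4, a platelet gene, at 777. The log2 fold change of Nkg7 was 1.10 ± 0.98 with all 4 KO libraries and -1.25 without KO 15, and neither value passed.

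Ms4a3 had a mean CPM in KO CMP of 0.439 times that in WT CMP. Its CPM there was 49.8, 90.2 and 107 in WT and 20.98, 25.8, 43.3 and 54.6 in KO, so 1 KO library, KO 15, overlapped WT. The log2 fold change was -1.18 ± 0.32 (adjusted p = 0.073), and DESeq2 (0.027, with 3.64% of genes called) and limma (0.011, with 6.62% called) called it. It also passed without WT 5 (adjusted p = 0.0415), HET 9 (0.0484) or KO 15 (0.0334). In LSK it stood near the floor, at 3 to 242 reads a library. KO LSK libraries had 0.495 to 2.08 CPM with a median of 0.807, WT 0.697 to 7.67 with a median of 1.61 and HET 0.398 to 9.91 with a median of 1.54. The LSK value was -1.46 ± 0.73 (adjusted p = 0.17), or -0.64 without WT24.10, and the KO against HET value -1.70 ± 0.60 (adjusted p = 0.067, and 0.0473 without WT24.10). In GMP, where Ms4a3 is abundant, KO had 1172, 1308 and 2396 and WT 874, 1783 and 1800, with a value of 0.13 ± 0.94.

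Cst7 did not pass in any population. In CMP it was at 74.3, 82.5 and 96.8 CPM in WT and 56.4, 65.1, 79.9 and 92.8 in KO, which overlapped (log2 fold change -0.20 ± 0.16). In GMP it was 161, 282 and 299 in WT and 70.0, 83.6 and 127 in KO, without overlap, with a value of -1.40 ± 0.84 that did not pass (adjusted p = 0.80). In LSK the value was -0.00 ± 0.28 and in MEP -0.11 ± 0.39. Cd63 was 38.6 to 56.0 in WT CMP and 30.8 to 59.5 in KO CMP, and in GMP KO had 309, 966 and 1216 against 297, 580 and 718 in WT. Neither Cd63 value passed, at -0.11 ± 0.25 and 0.64 ± 0.90. Hexa was 124, 137 and 145 CPM in WT CMP and 148, 149, 150 and 171 in KO CMP, each KO library above each WT library, yet the value was 0.19 ± 0.21 (adjusted p = 0.77) and HET libraries ran from 76.4 to 190. In GMP KO, Hexa had 168, 185 and 249 and WT 162, 312 and 315.

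Each member was also set against Mpo in the same library, a ratio in which depth and scaling cancel. Nkg7 per 1000 Mpo reads was 8.30, 9.73 and 14.1 in WT CMP and 4.91 to 6.65 in the 4 KO libraries, all below WT and HET. In GMP it was 18.6, 19.37 and 21.31 in WT and 3.98, 6.65 and 8.91 in KO, again below every WT and HET library. The log2 ratio differed by -1.67 between the means, yet with 3 against 3 the smallest exact permutation p is 0.1, and with 4 against 3 it is 0.0571. In LSK, with 9 against 5, the ratio differed by -0.74 (two-sided exact permutation p = 0.00300, and 0.0839 after Benjamini-Hochberg adjustment over the 28 ratios). Cst7 per 1000 Mpo reads in GMP was 11.1, 13.3 and 21.53 in WT and 4.07, 6.20 and 9.76 in KO, below every WT and HET library. Lyz2 was 33.8, 38.0 and 42.9 in WT and 95.9, 125 and 174 in KO, above every WT and HET library. After adjustment none of the 28 ratios passed.

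**Figure D4:**
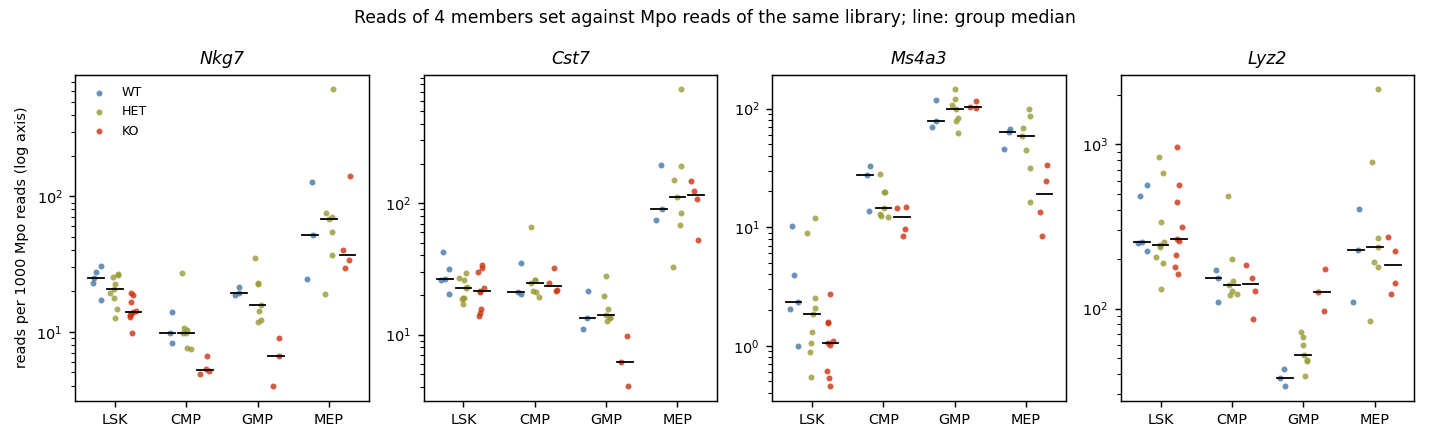
Reads of Nkg7, Cst7, Ms4a3 and Lyz2 per 1000 Mpo reads of the same library, on a log axis, by population and genotype; the line is the group median. In GMP the KO points of Nkg7 and Cst7 lie below all WT and HET points and those of Lyz2 lie above.

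The KO effects were not called different between populations for any member. The difference of GMP minus CMP was -0.04 ± 1.02 for Mpo and 1.82 ± 1.03 for Lyz2, and that of GMP minus MEP was -2.83 ± 1.24 for Nkg7 (adjusted p = 0.53). That Nkg7 difference leans on MEP KO 15, at 54.3 CPM against a median of 3.26 in KO MEP. Without this library the KO value of Nkg7 in MEP changed sign, as given above. Over all genes, 0.0169% were called for GMP minus CMP, none for MEP minus CMP and 0.414% for GMP minus MEP, and 714, 278 and 926 had an unadjusted p under 0.05. limma called 1 member for MEP minus CMP, Srgn at -1.06, with 1.57% of all genes called.

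The serine proteases of the same granule, listed with their activator Ctsc and the inhibitor Serpinb1a, gave other values in CMP. Of these 6 genes 4 were called lower than in WT, beside 0.823% of all genes. Elane (neutrophil elastase) fell by 3.49 ± 0.47, Ctsg (cathepsin G) by 2.68 ± 0.18 and Prss57 by 2.53 ± 0.40 on the log2 scale. Ctsc, the cysteine protease that activates them, fell by 1.32 ± 0.21. Prtn3, the other serine protease, was not called. The median of the 6 genes was -1.93. The members' median was -0.20, which is no independent contrast, since they were chosen as genes largely kept or mixed in KO. Of 29 lysosomal enzyme and membrane genes tested in CMP none was called, with a median of -0.06. In LSK 6 of 30 were called, 5 higher and 1 lower, a share near the 18.8% of all genes. The 6 included Gm2a, the activator protein that works with the Hexa product, higher by 0.46 ± 0.08, and Gusb, which fell by 0.44 ± 0.09. Of 7 NADPH oxidase genes, which supply the peroxidase's substrate, Cybb fell in CMP by 1.20 ± 0.19, and Hvcn1, a proton channel, fell in GMP by 4.43 ± 0.88. Of 5 other Ms4a genes tested in CMP, Ms4a6d fell by 1.21 ± 0.24. Of 12 other tetraspanins, in CMP Cd37 rose by 0.80 ± 0.16 and Cd53 fell by 0.64 ± 0.14. None of 8 regulators of azurophil genes tested in CMP was called.

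Over the 41 CMP, GMP and MEP libraries the 5 genes most like Mpo, by Pearson r of log2 CPM among 11309 genes, were Igsf6 (0.985), Anxa3 (0.984), Gpr160 (0.979), Serpinb1a (0.970) and Fcgr3 (0.970). Fcgr3 encodes a CD16/32 antigen used to sort the populations. Among the other members, Cst7 was the most like Mpo (0.943, rank 27) and Cd63 the least (0.747, rank 394). The libraries share the difference between populations, so these values are a description. Within GMP without HET 8 (12 libraries) r with Mpo ran from 0.677 for Cst7 to 0.915 for Ms4a3, and within CMP without HET 8 (13 libraries) from -0.09 for Srgn to 0.762 for Cd63. With CMP HET 8 the highest CMP value was that of Hexa, 0.869, which was 0.518 without it, and Lyz2 moved from 0.725 without that library to 0.208 with it.

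In LSK, title series 22 and 24 had summed macrophage markers of 128 to 836 CPM (median 511), against 18.4 to 195 (median 60.1) in series 19 to 21. Within series 19 to 21, Mpo averaged 697 CPM in 3 WT libraries and 999.96 in 5 KO libraries, and within series 22 and 24 it averaged 648 in 2 and 715 in 4. For Nkg7 the same averages were 15.5 and 13.3, then 17.7 and 11.4. The direction of Mpo and of Nkg7 was the same in both. For Cst7 the difference of mean log2 CPM, KO minus WT, was 0.35 in series 19 to 21 and -0.62 in series 22 and 24, and for Srgn 0.22 and -0.03, so those directions turned. The part of the macrophage markers in these values was not tested.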

How the data were processed

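The authors deposited raw read counts, 1 whole number for each Ensembl gene. The submitters' processing notes name featureCounts and the mm10 (GRCm38) build; no aligner, annotation or version is given in the sources used here. Smart-seq2 marks neither strand nor molecule. Spike-ins (92, 21, 43 and 27 in LSK, CMP, GMP and MEP) were kept out of library sizes, and symbols came from GENCODE M21. The members and gene lists were chosen with earlier results of these data known; all 8 members are named, and other genes by the list or as the 5 most like Mpo. Every population had its own edgeR fit (version 4.0.16, R 4.3.3; quasi-likelihood, robust, TMM, filterByExpr with a minimum count of 10), with 3 genotypes in 1 model; populations were compared in 1 model of 11829 genes. Adjusted p-values are Benjamini-Hochberg over all genes tested at 0.05, and an SE is the absolute log2 fold change over the square root of F. CPM levels use TMM-scaled library sizes. The fits were also run on simulated counts with known fold changes, and the outcome is not given here. Alternatives used RLE, other filters, DESeq2 1.42.0, limma 3.58.1, a series block, a replicate block, sex, 2 genotypes and each library left out; leaving out libraries that stood apart and single title series were added after seeing the data.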

Additional observations from a re-analysis of the deposited data

Results flagged for a closer look

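In groups of 4 to 10 libraries, 64 member-by-group sets were examined for a highest or lowest library whose gap to its nearest neighbour was large against the range (Dixon's criterion), and 18 had one. Chance flags about 1 in 20 groups when values are normally distributed. The criterion was applied to CPM without a log, and the members share the same libraries. The 18 flags therefore cannot be set against that rate. These libraries are named because their member level lay apart, and no cause was tested. MEP KO 15 was the highest of its group for Lyz2 at 85.5 CPM, Srgn at 281, Nkg7 at 54.3, Cd63 at 122 and Hexa at 91.8. MEP HET 8 was the highest for Cst7 at 28.0 CPM, Nkg7 at 23.5, Cd63 at 135.97 and Hexa at 97.0. GMP HET 8 was the lowest for Srgn, at 117 CPM, and CMP HET 8 the lowest for Mpo, at 1115. GMP HET 7 was the highest for Nkg7, at 1103 CPM, and CMP KO 15 the highest for Hexa, at 171. In LSK, Srgn was lowest in HT20.4 (339 CPM), Ms4a3 highest in WT24.10 (7.67), Nkg7 lowest in WT21.1 (11.9), and Cd63 and Hexa highest in KO22.2 (41.9 and 290.4).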

How the results depend on the processing

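Of 6787 gene values recomputed, 243 changed sign, of which 240 were called under neither setting and the other 3 were called by limma: Lyz2, HET against WT in GMP (-0.95, adjusted p = 0.0220), and Cd63, MEP against CMP, in HET (-0.58) and KO (-0.57). Calls were lost in 38 values and gained in 81, and 29 of 849 counts moved by over 1.5 times; the cause was not tested. KO against WT in LSK gave 1 member with a title series block, and KO against HET in LSK gave 2 by DESeq2 and 0 without the filter, with the series block, with 2 genotypes and in series 19 to 21 alone. KO against WT in CMP gave 2 by DESeq2, limma and the series block, and 0 in M32 alone. limma called 7 members lower for HET against WT in GMP, 1 for KO against WT and 1 for KO against HET in MEP, 1 for the KO effect in MEP minus CMP, 8 for GMP against CMP and 7 for MEP against CMP in WT; it called 50.9%, 1.36%, 2.64%, 1.57%, 57.5% and 19.38% of all genes in those comparisons. Without libraries that stood apart both WT comparisons gave 7, and M32 alone gave 3 for GMP against CMP and 1 for MEP against CMP in KO.

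Leaving out each library in turn (in LSK, each WT library) gave 0 to 1 members for KO against WT in LSK (1 without WT21.1), 1 to 2 for KO against HET in LSK (2 without WT24.10) and 1 to 2 for KO against WT in CMP (2 without WT 5, HET 9 or KO 15). GMP against CMP in WT gave 0 to 7 and in KO 3 to 6. Nkg7 in CMP, KO against WT, passed in all 14, between -1.25 and -1.06, and GMP against MEP stayed at 8 of 8 in each genotype. With the replicate number as a block, Nkg7 for GMP against CMP in KO was 2.46 (adjusted p = 0.0515) and Mpo in WT 2.56 (adjusted p = 0.0443); 26 of 40 same-number pairs had a correlation over 0.1, the lowest -0.48, so the numbers were not shown to pair the libraries. Depth limits Ms4a3 in MEP, at 2 to 49 reads a library, and in LSK, at 3 to 242. It also limits Nkg7 in MEP, at 7 to 153 reads a library.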
